A study of Homo sapiens with 6 samples.

Results

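Simple repeats with a unit of 5 or 6 bases are stretches of the human genome in which a short word, such as AGCCA or CTGCCC, follows itself many times head to tail. They were taken from the repeat read counts by name: a locus was kept when its repeat name was a unit of 5 or 6 letters in round brackets followed by n. This gave 8165 loci under 1967 names, 490 with a unit of 5 letters and 1477 with a unit of 6, out of 433837 loci and 5230 names in the tables. They held 656398 of the 13192029 reads counted in all. RNA came from HEK293T cells, a human embryonic kidney cell line carrying the SV40 large T antigen, and the genotype label reads WT for the control libraries and U7 snRNA knockdown for the others. All cells received, by cationic lipid transfection, 100 nM of a chimeric antisense oligonucleotide (ASO), a short synthetic strand that pairs with a chosen RNA. It was aimed at U7 small nuclear RNA in 3 libraries and, as the control, at GFP in the other 3. Both groups therefore share the transfection and an ASO, no untransfected cells were included in the comparison, and total RNA depleted of ribosomal RNA was sequenced. The submitters describe the 3 libraries per ASO as biological replicates. Nothing says whether these were separate cultures, so p-values measure the spread between these libraries, which may be partly technical.

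Short tandem repeats, or microsatellites, gain and lose units when a polymerase slips on them, and they lie in introns, in untranslated regions, between genes and within other repeats. A few kinds are known for a place: TTAGGG and its complement form the telomeres and are transcribed as TERRA, GGAAT repeats make up satellite II and III DNA near centromeres, and A-rich units often descend from the A-rich tails of Alu and L1 elements. U7 RNA is the RNA part of a small particle that pairs with replication-dependent histone pre-mRNA and directs its 3′ end cleavage, and the series title concerns a further function in the repression of LTR12 elements and lincRNAs. Most simple repeats have no promoter of their own, and a read over one can belong to a longer transcript that crosses it.

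The names that carry the results below are shown as 3 units in tandem, 5′ to 3′ as the repeat name writes them, and with C and T in capitals, so that the place of the pyrimidines can be seen. How many units each locus holds is not in the tables. The first 7 changed as whole names, and the last 3 passed in edgeR's reported fit with their most abundant locus set apart but not as whole names.
(AGCCA)n, 2 loci: agCCaagCCaagCCa
(GCTGGT)n, 4 loci: gCTggTgCTggTgCTggT
(CTGCCC)n, 14 loci: CTgCCCCTgCCCCTgCCC
(TCTTC)n, 16 loci: TCTTCTCTTCTCTTC
(ACCTCC)n, 6 loci: aCCTCCaCCTCCaCCTCC
(CCGCAT)n, 1 locus: CCgCaTCCgCaTCCgCaT
(GAGCGA)n, 4 loci: gagCgagagCgagagCga
(TCCTC)n, 25 loci: TCCTCTCCTCTCCTC
(GGAGGT)n, 10 loci: ggaggTggaggTggaggT
(ACACAT)n, 14 loci: aCaCaTaCaCaTaCaCaT
The unit of (TCTTC)n and that of (TCCTC)n are pyrimidines throughout. The unit of (GGAGGT)n is the reverse complement of that of (ACCTCC)n, so the pair names the same double-stranded repeat annotated on opposite strands. A repeat name does not fix the strand that was read, because the strand setting of the counting is not given in the sources used here.

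Libraries held between 1926892 and 2819540 reads over repeat loci, and each U7 ASO library was deeper than each control library. Loci with a 5- or 6-base unit and at least 1 read numbered 2971, 3422 and 2881 with control ASO and 3311, 3567 and 3520 with U7 ASO. The RNA aimed at could hardly be checked in these tables: the 16 listed U7 loci held 10, 6 and 12 reads with control ASO and 10, 4 and 6 with U7 ASO, which overlap. Values below are given as reads or as CPM, reads scaled to a common library size with the TMM factors of the repeat names. A feature is called raised or lowered when its adjusted p is under 0.05 in edgeR's quasi-likelihood test, with Benjamini-Hochberg adjustment over all tested features of the table. Fold changes are log2 of U7 ASO over control ASO.

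The reads of this class of repeat were concentrated in few places. Of the 1967 names, 838 (42.6%) had 1 listed locus, the median was 2 loci per name and the largest name, (AAAAC)n, had 86. A single locus, (AGCCA)n_1897530, held 20.01% of all reads of the 8165 loci, the 10 most abundant loci held 31.4% and the 100 most abundant 57.8%. The leading loci, meaning the locus of each name with the most reads over the 6 libraries, held 79.7% together. At the other end, 60.5% of the loci had fewer than 10 reads over the 6 libraries, and 49.2% had reads in 1 library only. The filter on low counts left 713 names (36.2%) and 978 loci (12.0%, against 3.31% of all loci in the tables) to be tested. Among the 618 tested names with more than 1 locus, the leading locus held a median of 66.1% of the name's reads, over 50% in 432 names and over 90% in 144.

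With U7 ASO a smaller share of the reads fell in these repeats, and the most abundant locus took the largest part in that. The share of all repeat reads was 7.11%, 5.80% and 5.35% with control ASO and 5.23%, 3.86% and 3.36% with U7 ASO, a mean of 6.08% ± 0.92 (SD, n = 3) against 4.15% ± 0.97. The groups did not overlap (exact permutation test, two-sided, p = 0.1, the smallest that 3 libraries against 3 allow). Scaled to CPM the same sum overlapped between the groups (exact permutation p = 0.2). Without (AGCCA)n_1897530 the shares were 4.798%, 4.47% and 3.97% against 4.52%, 3.43% and 3.13% (exact permutation p = 0.3). With the leading locus of every name set apart, 6198 loci remained, with shares of 1.13%, 1.08% and 0.96% against 1.16%, 0.93% and 0.86% (exact permutation p = 0.5). The U7 ASO and control libraries overlapped in both of these reduced sums, and the U7 ASO library nearest to the controls was library 1 in each. All simple repeats of the tables together also took a smaller share with U7 ASO, 13.2%, 10.2% and 9.22% against 16.1%, 14.3% and 13.7%.

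**Figure D1:**
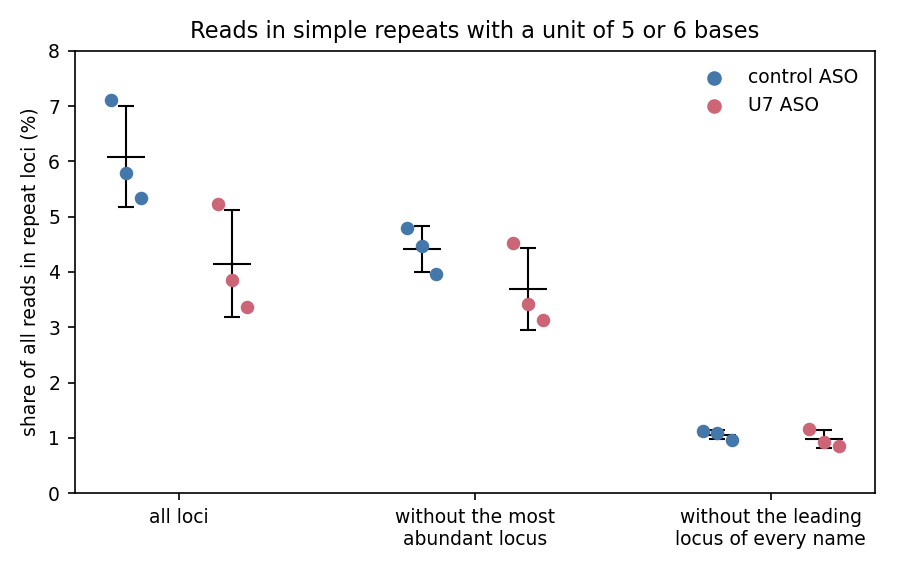
Share of all repeat reads in simple repeats with a unit of 5 or 6 bases, in percent, per library (points) with mean and SD over 3 libraries (lines), for all 8165 loci, without the most abundant locus, and without the leading locus of every name. The control libraries lie between 5.35% and 7.11% and the U7 ASO libraries between 3.36% and 5.23% for all loci, and the groups overlap in the other sets.

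Summed over all loci of a name, 7 names changed. With U7 ASO, (GCTGGT)n rose by 2.19 on the log2 scale. Those that fell were (AGCCA)n at -1.94, (CTGCCC)n at -1.46, (TCTTC)n at -1.44, (GAGCGA)n at -1.24, (ACCTCC)n at -1.10 and (CCGCAT)n at -1.07. That is 1 raised and 6 lowered of 713 tested names, beside 1.52% raised and 1.03% lowered among all 2236 tested repeat names. The lowered share of the members, 0.84%, is near that background, and the raised share, 0.14%, is below it. At an unadjusted p under 0.05, 12 names were higher (1.68%, background 6.93%) and 72 lower (10.1%, background 7.65%). The tested names lay mostly on the lower side: 65.9% had a negative log2 fold change, with a median of -0.21, against 50.6% and a median of -0.01 over all tested names. In 90 names all 3 U7 ASO libraries lay below all 3 control libraries (12.6%, background 10.2%), and in 29 they lay above (4.07%, background 9.93%). Units of 5 bases (0 raised and 2 lowered of 176, median -0.25) and of 6 bases (1 raised and 4 lowered of 537, median -0.21) showed similar medians. Names of simple repeats with shorter and longer units had medians of the same sign: -0.31 for 18 tested names with units of 1 or 2 bases, -0.21 for 205 with 3 or 4, and -0.27 for 263 with 7 or more.

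**Figure D2:**
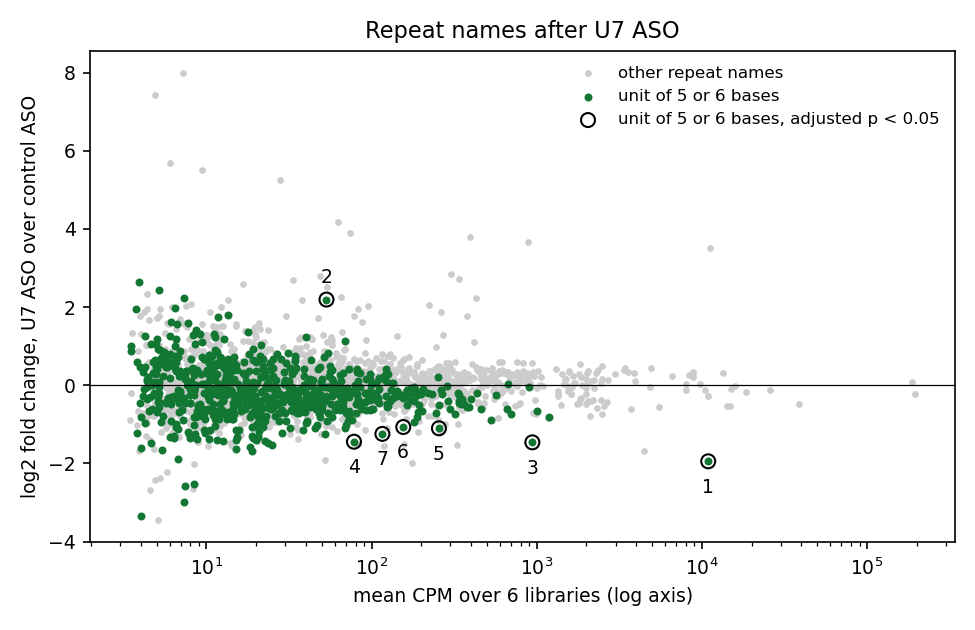
Log2 fold change (U7 ASO over control ASO) against mean CPM over the 6 libraries (log axis) for all tested repeat names (grey) and for names with a unit of 5 or 6 bases (green). Circles mark the 7 names past the threshold: 1 is (AGCCA)n, 2 is (GCTGGT)n, 3 is (CTGCCC)n, 4 is (TCTTC)n, 5 is (ACCTCC)n, 6 is (CCGCAT)n and 7 is (GAGCGA)n, and only (GCTGGT)n lies above 0.

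The most abundant name of all, (AGCCA)n, was also among the strongest to fall. Its reads were 46823, 25637 and 27308 with control ASO and 14824, 10233 and 6562 with U7 ASO. Every U7 ASO library lay below every control library, and within each group the libraries differed by more than 1.5 times. In CPM this was 17333 ± 6706 (SD, n = 3) against 4504 ± 2332, and the log2 fold change was -1.94 (SE 0.29, edgeR adjusted p = 0.00023). The name has 2 listed loci, and (AGCCA)n_1897530 held 99.99% of its reads. The second locus had 6, 0 and 0 reads against 0, 1 and 10, too few to test, so the name's change is that of 1 locus. As a share of the reads of all 8165 loci, (AGCCA)n_1897530 made up 32.5%, 22.9% and 25.8% with control ASO and 13.6%, 11.3% and 6.92% with U7 ASO.

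The next name to fall was (CTGCCC)n, whose leading locus, (CTGCCC)n_1897529, carries the running number just before that of the abundant (AGCCA)n locus. The name had 3389, 2172 and 2398 reads with control ASO and 1178, 1604 and 820 with U7 ASO, and the groups did not overlap. Its log2 fold change was -1.46 (SE 0.25, edgeR adjusted p = 0.00118). The leading locus held 84.1% of the reads of its 14 loci, with 3061, 1851 and 2215 reads against 767, 1299 and 534. The remaining 13 loci had 328, 321 and 183 reads against 411, 305 and 286, a log2 fold change of -0.17 (adjusted p = 0.877). So among loci named (CTGCCC)n, the one beside (AGCCA)n_1897530 accounted for the lower count. The ratio of the (AGCCA)n locus to its (CTGCCC)n neighbour was 15.3, 13.9 and 12.3 with control ASO and 19.3, 7.88 and 12.3 with U7 ASO. The mean ratio was 13.8 ± 1.5 (SD, n = 3) against 13.2 ± 5.8, with overlapping groups.

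The 1 name that rose was (GCTGGT)n. It had 35, 33 and 43 reads with control ASO and 258, 118 and 261 with U7 ASO, or 19.1 ± 1.5 CPM (SD, n = 3) against 87.6 ± 36.7. The control libraries lay close together, the U7 ASO libraries were spread, and the groups did not overlap. The log2 fold change was 2.19 (SE 0.36, edgeR adjusted p = 0.000795). Of its 4 loci, (GCTGGT)n_2888134 held 93.3% of the reads. The other 3 loci, untested for low counts, had 6, 0 and 0 reads against 10, 12 and 22.

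Among pyrimidine-only units, (TCTTC)n fell, and it did so both with and without its leading locus. Its 16 loci had 177, 229 and 260 reads with control ASO and 100, 87 and 122 with U7 ASO, which is 114 ± 17 CPM (SD, n = 3) against 42.1 ± 5.7. Each U7 ASO library lay far below the lowest control library. The log2 fold change was -1.44 (SE 0.28, edgeR adjusted p = 0.00364). The leading locus (TCTTC)n_dup6_3397882 held 77.3% of the reads, and the other 15 loci had 47, 74 and 43 reads against 9, 25 and 23, which is -2.04 in log2 (SE 0.48, adjusted p = 0.0474). In the whole list of pyrimidine-only units, 0 names were raised and 1 was lowered of 86 tested (1.16%, background 1.03%), with a median of -0.22. At an unadjusted p under 0.05, 0 names of that list were higher and 8 lower (9.30%, background 7.65%). DESeq2 gave an adjusted p to 45 names of the list and lowered 4 (background 3.05%). After the same filter as edgeR it lowered 3 of 86 (background 1.83%), and limma-voom lowered 1 of 86 (background 1.83%). Of the names with purine-only units 0 of 11 were called by edgeR. At an unadjusted p under 0.05, 0 of the 11 were higher (background 6.93%) and 1 lower (background 7.65%).

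The last 3 names to fall had fewer reads than (AGCCA)n and (CTGCCC)n but more than (TCTTC)n, and nearly all of them in 1 locus. (ACCTCC)n had 704, 554 and 771 reads with control ASO and 425, 361 and 394 with U7 ASO (log2 fold change -1.10, SE 0.22, edgeR adjusted p = 0.0046), and 97.2% of them lay in (ACCTCC)n_dup3_3671328. Its other 5 loci went the other way in value, with 0, 13 and 13 reads against 23, 16 and 25, a difference that did not pass (adjusted p = 0.757). (CCGCAT)n, with 1 listed locus, had 287, 488 and 449 reads against 193, 251 and 302 (log2 fold change -1.07, SE 0.24, edgeR adjusted p = 0.0158). (GAGCGA)n had 258, 348 and 342 reads against 215, 152 and 124 (log2 fold change -1.24, SE 0.29, edgeR adjusted p = 0.0177), with 91.5% in 1 of its 4 loci. In CPM none of the 3 overlapped between the groups. The calls of (CCGCAT)n and (GAGCGA)n were nearer to the threshold than that of (ACCTCC)n, and all 3 were lost with some libraries left out. With 1 library left out the log2 fold changes were -0.99 to -1.26 for (ACCTCC)n, -0.87 to -1.24 for (CCGCAT)n and -0.99 to -1.61 for (GAGCGA)n. The adjusted p missed the threshold for (ACCTCC)n without U7 ASO library 2 (adjusted p = 0.0632) or 3 (0.0743), for (CCGCAT)n without control library 2 (0.211), U7 ASO library 2 (0.0962) or 3 (0.0868), and for (GAGCGA)n without the same libraries (0.139, 0.147 and 0.202). The other 4 names, (AGCCA)n and (CTGCCC)n as well as (TCTTC)n and the raised (GCTGGT)n, kept their calls when each of the 6 libraries was left out in turn.

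**Figure D3:**
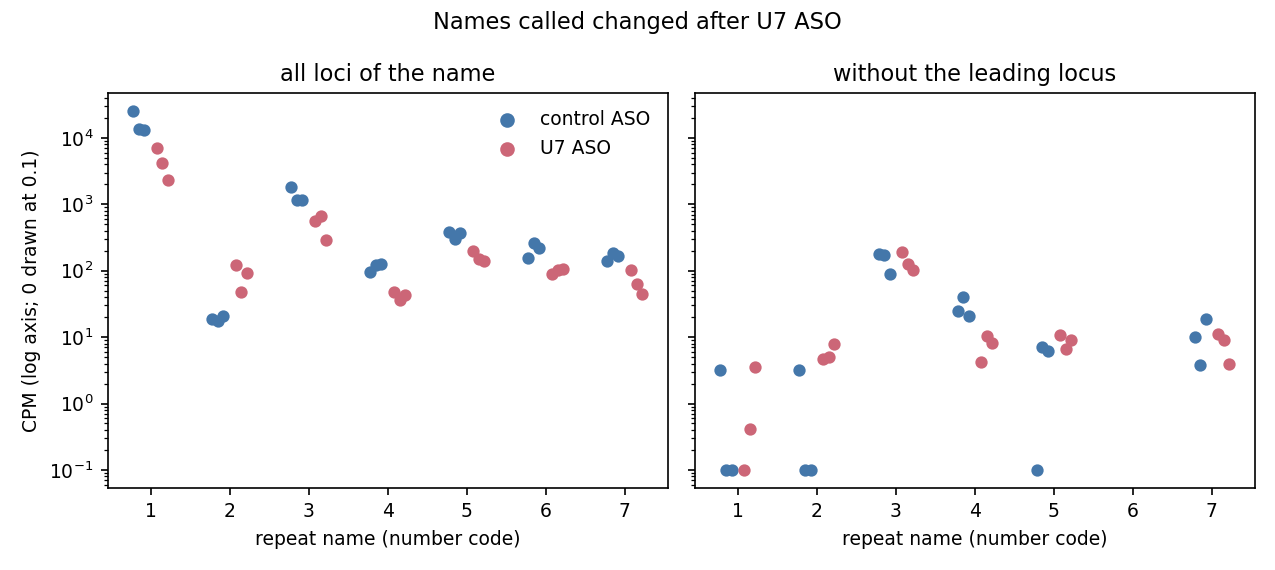
CPM (log axis, 0 drawn at 0.1) per library of the 7 names past the threshold, with all loci (left) and without the leading locus (right), coded 1 for (AGCCA)n, 2 for (GCTGGT)n, 3 for (CTGCCC)n, 4 for (TCTTC)n, 5 for (ACCTCC)n, 6 for (CCGCAT)n and 7 for (GAGCGA)n; the single-locus name 6 has no points on the right. The groups are apart for all 7 on the left, and on the right for names 2 and 4.

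With the leading locus of every name set apart, 4 names fell and none rose. These were (TCTTC)n at -2.04, (ACACAT)n at -1.50, (TCCTC)n at -1.05 and (GGAGGT)n at -0.83, out of 356 tested (4 lowered, background 0.779%, and 0 raised, background 1.1%). All 3 U7 ASO libraries lay below the controls in 29 names (8.15%, background 5.97%) and above them in 12 (3.37%, background 11%). At an unadjusted p under 0.05 in edgeR, 3 names were higher (0.84%, background 4.8%) and 28 lower (7.87%, background 6.62%). DESeq2, which gave an adjusted p to 431 of these names, called 1 raised (0.232%, background 1.43%) and limma-voom 0 (background 0.973%). The remaining 24 loci of (TCCTC)n had 306, 296 and 291 reads with control ASO and 158, 222 and 221 with U7 ASO. The control values were close together, all U7 ASO values were lower, and the log2 fold change was -1.05 (SE 0.20, adjusted p = 0.0132). Its leading locus had 900, 668 and 766 reads against 683, 729 and 649 (-0.29 at the level of loci, adjusted p = 0.817). Each level has its own scaling, so the 2 fold changes are not on 1 scale. In CPM the leading locus had 403 ± 68 (SD, n = 3) against 284 ± 47, also without overlap, and the rest 154 ± 12 against 81.4 ± 8.8. The whole name missed the threshold (-0.61, adjusted p = 0.115), although it passed with DESeq2 (-0.60, adjusted p = 0.044). For (GGAGGT)n, the rest had 304, 284 and 408 reads against 193, 253 and 335 (-0.83, adjusted p = 0.0374). Its leading locus did not pass (0.08 at the level of loci, adjusted p = 0.968). In CPM that locus had 227 ± 41 against 205 ± 5.5, with overlap. For (ACACAT)n, the rest had 79, 79 and 73 reads against 36, 34 and 43 (-1.50, adjusted p = 0.0474), while the leading locus, with 50, 14 and 58 against 64, 64 and 96, lay at 0.75 (adjusted p = 0.673). In both names the sum over all loci did not pass in edgeR (adjusted p = 0.41 and 0.58).

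These 4 calls were also lost with some libraries left out. With 1 library left out the log2 fold changes stayed between -0.95 and -1.14 for (TCCTC)n, between -0.75 and -0.88 for (GGAGGT)n, between -1.40 and -1.62 for (ACACAT)n and between -1.71 and -2.29 for (TCTTC)n. The call of (TCCTC)n was lost without control library 1 (adjusted p = 0.0825), control library 2 (0.109) or U7 ASO library 3 (0.106). (GGAGGT)n was lost without any 1 of the 6 libraries (adjusted p from 0.0592 to 0.169). (ACACAT)n was lost without any library but U7 ASO library 1 (0.0511 to 0.235), and (TCTTC)n without any but control library 3 (0.0615 to 0.373). The median log2 fold change over the 356 names was -0.24, against -0.01 over all 1541 names tested this way. By that median the lower side of the distribution was present in the remaining loci too, although the summed share of their reads overlapped between the groups. Of the 356 names, 276 had the same sign with and without the leading locus. The whole name includes the remaining loci, so this agreement is partly built in.

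**Figure D4:**
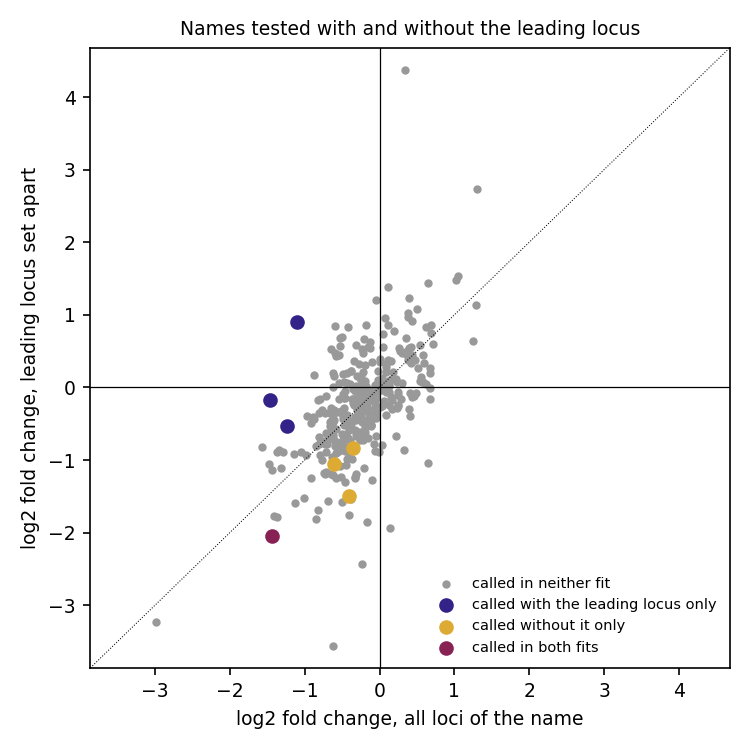
Log2 fold change (U7 ASO over control ASO) of the 356 names tested both with all loci (horizontal axis) and with the leading locus set apart (vertical axis); the dotted line marks equal values and colours mark which fit passed the threshold. (TCTTC)n is the 1 name called in both fits, and (ACCTCC)n, at -1.10 with and 0.90 without its leading locus, is the called name furthest above the line.

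Locus by locus, 8 loci changed. With U7 ASO (GCTGGT)n_2888134, (TGGCGC)n_3969489 and (GCCCGT)n_3165776 rose, and (AGCCA)n_1897530, (CTGCCC)n_1897529, (GCCCCA)n_dup7_275129, (CTGTGG)n_4174041 and (CCCAGC)n_dup3_3794070 fell. That is 3 raised of 978 tested loci (0.31%, background 4.49%) and 5 lowered (0.51%, background 0.473%). The raised share was far under that of the whole table, and the lowered share was near it. At an unadjusted p under 0.05, 28 loci were higher (2.86%, background 8.21%) and 52 lower (5.32%, background 4.09%). All 3 U7 ASO libraries lay above the controls in 30 loci (3.07%, background 9.94%) and below them in 129 (13.2%, background 11.5%). The median log2 fold change was -0.07 against 0.06 over all tested loci. Without the filter on low counts both medians were positive, 0.35 over the 8165 members and 1.52 over all 433837 loci. Values for a single locus are uncertain, since reads from near-identical stretches could be split or assigned to another copy, and the treatment of such reads is not given in the sources used here.

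Of the raised loci, (GCTGGT)n_2888134 had 29, 33 and 43 reads with control ASO and 248, 106 and 239 with U7 ASO (log2 fold change 2.37, SE 0.40, edgeR adjusted p = 0.00177). (TGGCGC)n_3969489 had 8, 5 and 15 reads against 49, 42 and 72 (2.40, SE 0.60, adjusted p = 0.0288). With so few control reads it passed the count filter through its U7 ASO reads, so its call depends partly on the filter. (GCCCGT)n_3165776 had 46, 60 and 30 reads against 139, 97 and 180 (1.46, SE 0.40, adjusted p = 0.0499). All 3 showed groups that did not overlap. The first kept its call when any 1 library was left out. (GCCCGT)n_3165776 lost it without any 1 of them (adjusted p from 0.0784 to 0.307), and (TGGCGC)n_3969489 lost it without any but control library 3 (0.0876 to 0.225).

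Among the lowered loci, (AGCCA)n_1897530 lay at -1.75 at this level (SE 0.33, edgeR adjusted p = 0.00429) and (CTGCCC)n_1897529 at -1.55 (SE 0.34, adjusted p = 0.0134). (GCCCCA)n_dup7_275129 had 17, 26 and 18 reads with control ASO and 0 in each U7 ASO library (adjusted p = 0.0203), which against a floor of 3 reads over the group is at least 25.8-fold lower with U7 ASO. It passed the count filter only through its control reads, so its call depends partly on the filter. (CTGTGG)n_4174041 had 55, 70 and 40 reads against 19, 12 and 14 (-1.99, SE 0.53, adjusted p = 0.0426). (CCCAGC)n_dup3_3794070 had 462, 357 and 256 reads against 211, 150 and 123 (-1.26, SE 0.34, adjusted p = 0.0487). The groups were apart in all 5. Their calls were lost with some libraries left out, at fold changes of -1.42 to -2.12 for (AGCCA)n_1897530 and -1.22 to -1.96 for (CTGCCC)n_1897529. For (AGCCA)n_1897530 these were control library 1 (adjusted p = 0.06) and U7 ASO libraries 2 (0.0996) and 3 (0.0669). For (CTGCCC)n_1897529 these were control libraries 1 (0.104) and 2 (0.0554) and U7 ASO libraries 1 (0.178) and 3 (0.124). (GCCCCA)n_dup7_275129 lost its call without any 1 library (0.0647 to 0.229), and (CTGTGG)n_4174041 (0.125 to 0.299) and (CCCAGC)n_dup3_3794070 (0.0849 to 0.359) without any but control library 3. The leading loci of (ACCTCC)n (adjusted p = 0.0501), (GAGCGA)n (0.0688), (TCTTC)n (0.0923) and (CCGCAT)n (0.171) missed the threshold among loci. That level has its own scaling and fit, with 14380 features adjusted for. The 1 locus of (CCGCAT)n has the same reads at both levels. It lay at -1.07 as a name (edgeR unadjusted p = 0.000311) and at -0.85 as a locus (0.0126).

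Loci read in every library of a group and in no library of the other numbered 52 for U7 ASO (0.64% of the members, background 1.1% of all loci) and 33 for control ASO (0.40%, background 0.319%). The U7 ASO libraries were also deeper, and the part of depth in these counts was not tested. Of the members, 34.2% had no read with control ASO and 24.1% had none with U7 ASO. The corresponding shares over all loci of the tables were 45.7% and 26.8%.

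The running number in a locus identifier allows loci listed next to each other to be compared, although the tables give no coordinates and nearness here means nearness in that numbering. Within 20 numbers of (AGCCA)n_1897530 stood 15 loci of other kinds of repeat. Of these, 14 had no read in any control library and none was without reads with U7 ASO. Their summed reads were 0, 2 and 0 with control ASO and 35, 72 and 102 with U7 ASO, opposite in direction to the (AGCCA)n locus among them. In a wider window of 100 numbers on either side, chosen after these values had been seen, 100 such loci held 118 control reads and 2374 U7 ASO reads. There, 85 had no control read and 3 no U7 ASO read, while over all loci 45.7% had no control read and 26.8% no U7 ASO read. Of 7 that could be tested 6 were called raised by edgeR (background 4.49%). A locus with few control reads passes the count filter only through its U7 ASO reads, so these calls depend partly on the filter. None of the 100 was an LTR12 or HERV9 element. Neighbourhoods of other loci, with sums that were not tested, did not share 1 direction. Around (CCGCAT)n_1760264 the 15 neighbours of other kinds had 40, 50 and 65 reads against 36, 64 and 55, and around (CAGCTC)n_302748 the 13 neighbours had 60, 128 and 98 against 104, 128 and 107, and both pairs of groups overlapped. Around (GAGCGA)n_403055 the 16 neighbours had fewer reads with U7 ASO, 39, 86 and 67 against 18, 22 and 28. The largest part lay in 1 G-rich locus, with 25, 53 and 36 against 16, 8 and 16. The 6 around (CAGCCC)n_dup7_5300069 also had fewer, with 50, 49 and 40 against 24, 26 and 30. That direction was due to 1 locus, (AGC)n_dup10_5300068, with 47, 49 and 31 against 18, 12 and 8. The other neighbours there together had more reads with U7 ASO.

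**Figure D5:**
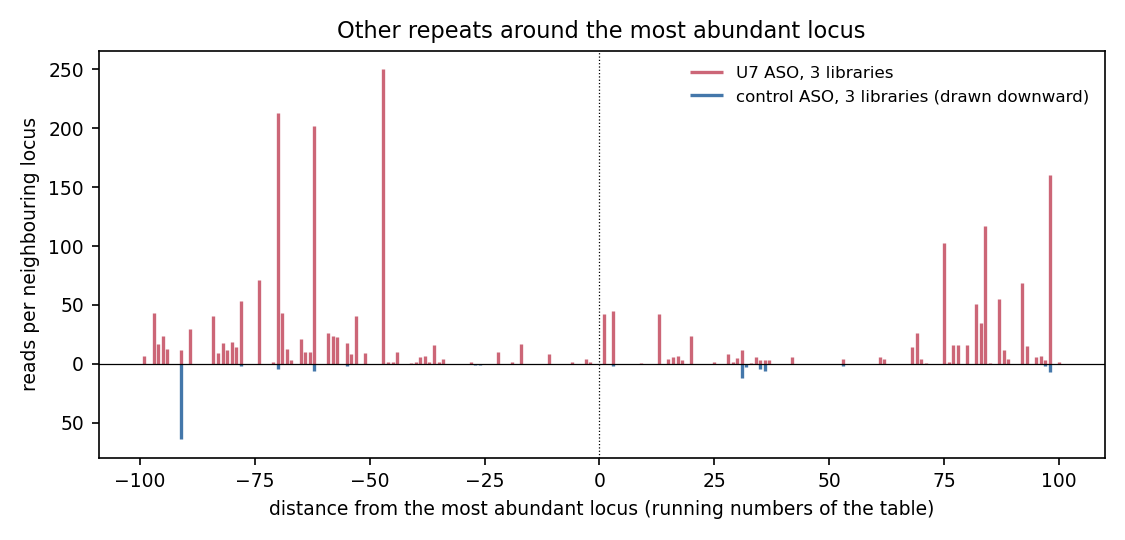
Reads summed over 3 libraries in each locus of another kind of repeat within 100 running numbers of (AGCCA)n_1897530 (U7 ASO upward, control ASO downward, both on a linear scale); the abundant locus at 0 and the (CTGCCC)n locus beside it are not drawn. The neighbours together held 2374 U7 ASO reads and 118 control reads, and 85 of the 100 have no control read.

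Of the raised loci, (GCTGGT)n_2888134 and (GCCCGT)n_3165776 each had 1 neighbour with enough reads to test. Both neighbours were called raised, beside 4.49% of all tested loci. The number after (GCTGGT)n_2888134 belongs to (GCT)n_dup18_2888135, with 38, 30 and 12 reads against 118, 132 and 234 (log2 fold change 2.43, SE 0.46, edgeR adjusted p = 0.00429), and the number before it to (GCTGGTGCA)n_2888133, with 2, 2 and 2 against 8, 0 and 6. Close to (GCCCGT)n_3165776 lies (TTTCCTC)n_dup1_3165778, with 22, 1 and 4 reads against 59, 67 and 87 (2.83, SE 0.75, adjusted p = 0.043). With so few reads in control libraries 2 and 3, it passed the count filter through its U7 ASO reads, so its call depends partly on the filter. For (TGGCGC)n_3969489 the 3 neighbours had 6 reads or fewer in each control library and were not tested. No named locus had an LTR12 or HERV9 element within 20 running numbers. Among the members themselves, 691 (8.46%) have another member at the next number. Over the 42 such pairs in which both loci were tested, the log2 fold changes had a Pearson correlation of 0.31 and the same sign in 27 pairs, a description of loci that share the same 6 libraries.

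Names whose units are rotations or reverse complements of each other describe the same double-stranded repeat, and merging them gave 381 unit classes. Of 221 tested classes 3 were lowered (1.36%, background 1.33%) and 0 raised (background 1.93%). By edgeR 4 classes were higher (1.81%, background 7.2%) and 36 lower (16.3%, background 8.79%) at an unadjusted p under 0.05. DESeq2, which gave an adjusted p to 175 classes, called 1 raised (0.571%, background 2.76%) and limma-voom 0 (background 2%). All 3 U7 ASO libraries lay below the controls in 31 classes (14.0%, background 8.66%) and above them in 4 (1.81%, background 12.5%). The class of AGCCA held 6 names and 8 loci and fell (log2 fold change -2.03, SE 0.37, adjusted p = 0.00491). The locus (AGCCA)n_1897530 held 99.95% of its reads. The class of (CCGCAT)n, merged with (GGATGC)n, had 317, 498 and 464 reads against 216, 270 and 332 (-1.08, SE 0.20, adjusted p = 0.00644). The class of (GAGCGA)n had 269, 348 and 361 reads against 228, 157 and 130 (-1.29, SE 0.29, adjusted p = 0.0269). The other names called by edgeR had no called class after merging. The class that holds (CTGCCC)n was not called, and neither was the class that holds (TCTTC)n. The same was true for the class with the lowered name (ACCTCC)n and for the class with the raised name (GCTGGT)n. Why these calls were absent after merging was not tested. The AGCCA class missed the threshold without U7 ASO library 2 (adjusted p = 0.0595) and the CCGCAT class without control library 2 (0.0972). The GAGCGA class missed it without control library 2 (0.114), control library 3 (0.0706), U7 ASO library 2 (0.181) or U7 ASO library 3 (0.115). Over the tested classes 76.5% of the log2 fold changes were negative, with a median of -0.32, against 51.2% and -0.01 over all 1501 features of that fit.

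Other tools placed the threshold elsewhere on the same counts. For names, DESeq2 gave an adjusted p to 357 members. It called 1 raised (0.28%, background 3.27%) and 13 lowered (3.64%, background 3.05%). After the same filter as edgeR, over 713 members, it called 2 raised (0.281%, background 2.15%) and 13 lowered (1.82%, background 1.83%). Over the same 713, limma-voom called 1 raised (0.14%, background 1.57%) and 11 lowered (1.54%, background 1.83%). All 3 fits over names included the 7 names called by edgeR. With the leading locus set apart, DESeq2 gave an adjusted p to 431 members and called 6 lowered (1.39%, background 1.07%). After the filter, over 356 members, it called 1 raised (0.281%, background 1.75%) and 7 lowered (1.97%, background 1.49%). There limma-voom called 2 lowered (0.562%, background 0.584%). For unit classes, DESeq2 gave an adjusted p to 175 members and called 10 lowered (5.71%, background 3.01%). After the filter it gave one to 152 and called 1 raised (0.658%, background 3.96%) and 10 lowered (6.58%, background 3.86%). Over 221 classes, limma-voom called 7 lowered (3.17%, background 1.93%). For loci, DESeq2 on all loci gave an adjusted p to 1470 members and called 0 raised (background 0.562%) and 0 lowered (background 0%). After the filter, over 978 members, it called 7 raised (0.716%, background 5.5%) and 12 lowered (1.23%, background 1.05%). Over the same 978, limma-voom called 2 raised (0.204%, background 2.37%) and 6 lowered (0.613%, background 0.549%).

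The telomeric class, all rotations of TTAGGG and CCCTAA, was lower in value with U7 ASO but missed the threshold. Its 18 loci had 155, 115 and 183 reads with control ASO and 98, 102 and 77 with U7 ASO. In CPM this was 77.7 ± 14.1 (SD, n = 3) against 38.5 ± 9.8 with no overlap, and the log2 fold change was -1.10 (SE 0.30, edgeR adjusted p = 0.0729). It passed with DESeq2 (adjusted p = 0.0367), with limma-voom (0.046) and without U7 ASO library 1 (0.0267). Reads on loci named for the C-rich strand numbered 149, 115 and 183 against 91, 94 and 66, while those named for the TTAGGG strand had 6, 0 and 0 against 7, 8 and 11. The single tested name, (CCTAAC)n, lay at -1.26 (SE 0.34, adjusted p = 0.0573). Its locus (CCTAAC)n_5234465 held 82.7% of the reads of the class as counted.

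The satellite II and III type class, GGAAT, had 490, 505 and 827 reads in its 51 loci with control ASO and 326, 804 and 691 with U7 ASO. The groups overlapped (log2 fold change -0.44, SE 0.24, adjusted p = 0.399), with 0 of 8 tested names called by edgeR, DESeq2 or limma-voom. Its 2 most abundant names pointed to consecutive running numbers, (ATGGA)n_3288949 and (AATGG)n_dup10_3288950, the second holding 32.3% of the class. Within the class the name (ATTCC)n, singled out after its values were seen, had 6, 1 and 2 reads against 30, 17 and 15 (2.45, SE 1.00, adjusted p = 0.246). The GGGGCC class, a unit known from disease-linked repeat expansions, had 630, 608 and 530 reads against 825, 700 and 638 over 80 loci (-0.12, SE 0.23, adjusted p = 0.861), with 0 of 9 names called by these tools. ATTCT, expanded in spinocerebellar ataxia, had 4, 9 and 39 reads against 6, 3 and 4 and was not tested.

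The A-rich classes were spread over many loci. AAAAC had 399 loci with 872, 977 and 1067 reads against 995, 1084 and 1038 (log2 fold change -0.32, SE 0.17, edgeR adjusted p = 0.385). AAAAG had 154 loci with 222, 276 and 370 reads against 154, 268 and 314 (-0.68, SE 0.22, adjusted p = 0.135), and its CPM values did not overlap between the groups. AAAAT had 121 loci with 61, 137 and 138 reads against 82, 118 and 117 (-0.50, SE 0.32, adjusted p = 0.476). None of the 20 tested names in the 3 classes was called by edgeR. The leading locus held 22.0% of the reads of AAAAC, 18.5% of AAAAG and 13.9% of AAAAT, far less than in the called names.

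Base composition separated the names only weakly. Units of G and C alone had a median of 0.01 over 46 tested names, units with a CG step in the repeated tract -0.10 over 177 (0 raised, 2 lowered), units with a run of 4 A or 4 T -0.24 over 49, and units of A and T alone -0.50 over 14. In the lists of G and C alone, A and T alone and A and T runs, 0 names were called by edgeR, DESeq2 or limma-voom. At an unadjusted p under 0.05 in edgeR those 3 lists held 0, 0 and 0 higher names and 1, 1 and 2 lower ones (2.17%, 7.14% and 4.08%, background 7.65%). Some names have a unit that is itself a shorter word repeated, such as (CTGCTG)n. These 53 names with 300 loci had a median of -0.26 over 31 tested, and 0 were called by edgeR. At an unadjusted p under 0.05, 0 of them were higher (background 6.93%) and 4 lower (background 7.65%). DESeq2 also called 0 of them, and limma-voom called (CTGCTG)n (adjusted p = 0.0287).

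Besides (AGCCA)n and (CTGCCC)n, the 10 most abundant names held 8 others, of which none passed in edgeR. At an unadjusted p under 0.05 in edgeR, 5 of the 8 were lower, beside 7.65% of all tested names. DESeq2 called (CCCAGC)n (adjusted p = 0.0489), and limma-voom (CTGCTG)n (0.0287) and (CAGCCC)n (0.0384), all lower. (CTGCTG)n, with 99.6% of its reads in 1 locus, had 3303, 3201 and 2228 reads against 2902, 1622 and 1559 (log2 fold change -0.82, SE 0.27, adjusted p = 0.129). (CAGCTC)n had 2711, 2335 and 2015 reads against 2133, 1783 and 1703 (-0.65, SE 0.20, adjusted p = 0.11). (CCCAGC)n, with its reads spread over 25 loci and 28.3% in the leading one, had 1992, 1705 and 1296 reads against 1472, 1022 and 1313 (-0.72, SE 0.22, adjusted p = 0.11). In CPM the first U7 ASO library reached into the control range in each of these 3 names. (CAGCCC)n (-0.89, adjusted p = 0.11) and (CCAGCC)n (-0.59, adjusted p = 0.242) were lower in value, and (CCAGCT)n (-0.06), (CCACCC)n (0.04) and (GGGGT)n (-0.26) lay nearer to 0. Without U7 ASO library 1, (CTGCTG)n (adjusted p = 0.000154), (CAGCCC)n (0.00139), (CCCAGC)n (0.00571), (CAGCTC)n (0.00588) and (CCAGCC)n (0.0198) passed.

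The units of (CCCAGC)n and of (CCAGCC)n and also that of (CAGCCC)n are rotations of 1 unit and form 1 class, to which the called loci (GCCCCA)n_dup7_275129 and (CCCAGC)n_dup3_3794070 also belong. The class, singled out after its values were seen, had 12 names and 163 loci, with 7458, 5918 and 4473 reads with control ASO and 5887, 4106 and 4637 with U7 ASO. It lay at -0.71 (SE 0.27, edgeR adjusted p = 0.234), the groups overlapped, and all 11 of its tested names had a negative log2 fold change. By edgeR 0 names of the class were called, while DESeq2 called (CCCAGC)n and limma-voom (CAGCCC)n. At an unadjusted p under 0.05 in edgeR, 0 were higher (background 6.93%) and 4 lower (background 7.65%).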

How the data were processed

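The members, the lists of units and the tests were chosen with earlier results of these data known. For each library the authors deposited raw read counts per repeat locus. A locus is named by its repeat, a copy number and a running number, and has no coordinates. The submitters' processing notes name FastQC 0.11.5, featureCounts 1.5.0-p1, STAR 2.5.3a and GRCh38. How strands, multi-mapping reads and read pairs were counted, and with which repeat annotation, is not given in the sources used here. Even numbers made up 62.2% to 64.6% of the members' counts above 0.

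Counts were fitted over all repeats of the tables with edgeR 4.0.16 under R 4.3.3 (quasi-likelihood test, two-sided, TMM scaling, filterByExpr with a minimum count of 10 and minimum total of 15) at 4 levels: loci, names, names without their leading locus, and unit classes. Each level has its own scaling. P-values were adjusted by Benjamini-Hochberg within a level, and calls were made under 0.05 whatever the fold. The filter set aside 7.47% to 15.3% of the members' reads at the level of loci. Named were all called features and their leading loci, the 10 most abundant names, and 7 classes of known units (telomeric, satellite II and III type, A-rich and others). Alternatives were DESeq2 1.42.0, limma-voom (limma 3.58.1), RLE factors, library totals, no filter, the replicate number as a block, and each library left out. DESeq2 after filterByExpr was added after the data were seen.

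The edgeR fits over names and loci were tested on simulated counts. For names, 28.9% of 2-fold and 73.3% of 4-fold changes that could be tested were called, and 3 of 97 calls were false. For loci, 0% of 2-fold and 20.6% of 4-fold changes were called, and 2 of 15 calls were false. A feature that missed the threshold, above all a locus, can therefore still differ. Replicates of a group differed by more than sampling noise, so none was counted as a duplicate. A fold against a group with 0 reads is a bound against 3 reads over the group and covers counting error only, since reads are not independent molecules.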

Additional observations from a re-analysis of the deposited data

How the results depend on the processing

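The calls of (AGCCA)n and (CTGCCC)n, those of (TCTTC)n and of the raised (GCTGGT)n among them, held as names in all 13 alternatives, and no named value that passed changed direction in any. Of these names, (TCTTC)n came nearest to the threshold in an alternative. The counts moved more. In names, 6 were lowered in the reported fit, 13 with DESeq2, 13 with DESeq2 after filterByExpr, 11 with limma-voom, 15 without a filter (0.763%, against 0.841% of all names), and 3 to 29 with 1 library left out. These were 29 without U7 ASO library 1 (3.62%, against 3.15% of all names), 12 without control library 3 (1.5%, against 1.28%), and 3 without U7 ASO library 2 (0.366%, against 0.329%) or 3 (0.374%, against 0.332%). Names raised numbered 2 instead of 1 with DESeq2 after filterByExpr and without a filter (0.102%, against 0.765% of all names). With the leading locus set apart, 4 were lowered as reported, 7 with DESeq2 after filterByExpr, 2 with limma-voom and 0 to 7 with 1 library left out. The 7 came without U7 ASO library 1 (1.81%, against 2.42%), and 0 without control library 1 (against 0.244%) or 2 (against 0.0613%). With DESeq2 and with DESeq2 after filterByExpr, 1 instead of 0 was raised. Lowered unit classes went from 3 to 10 with DESeq2 and with DESeq2 after filterByExpr, 7 with limma-voom, 13 without a filter (3.41%, against 2.2% of all features) and 1 to 24 with 1 library left out (24 without U7 ASO library 1, 10.1% against 4.68%). Raised ones went from 0 to 1 with DESeq2, DESeq2 after filterByExpr, library totals (0.452%, against 2.4%) and no filter (0.262%, against 1.7%). Lowered loci went from 5 to 0 with DESeq2, 12 with DESeq2 after filterByExpr, 8 without a filter (0.098%, against 0.0131% of all loci) and 0 to 4 with 1 library left out. The 4 came without control library 3 (0.333%, against 0.189%) and 0 without control library 1 (against 0.12%). Raised loci went from 3 to 0 with DESeq2, 7 with DESeq2 after filterByExpr, 1 without a filter (0.0122%, against 0.142%) and 1 to 3 with 1 library left out. The 3 came without control library 1 (0.257%, against 2.71%) or 3 (0.25%, against 2.88%). The cause of these differences was not tested. Scaling moved the median over all tested names from -0.01 to 0.00 (RLE) and 0.05 (library totals), while the members' median went from -0.21 to -0.20 and -0.15. Depth differs between features, and 60.5% of the loci had fewer than 10 reads in all.

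The replicate numbers were examined as a pairing of the libraries. Deviations from the group means correlated at 0.14, -0.03 and 0.14 for the same-numbered pairs and at -0.19 to 0.07 for the others. Libraries 1 and 3 of each group correlated best with their own number and the libraries numbered 2 did not, so the numbers were not taken as pairs, since 1 of the 3 correlations was not over 0.1. With a replicate block, 27 names (3.79%, against 3.31% of all names), 8 names without their leading locus (2.25%, against 2.34%), 23 unit classes (10.4%, against 5.4%) and 8 loci (0.818%, against 0.605%) were lowered. Raised were 1 name (0.14%, against 2.64%), 0 names without their leading locus (against 1.49%), 1 unit class (0.452%, against 3.2%) and 4 loci (0.409%, against 4.1%).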
